A study of Mus musculus with 8 samples.

Results

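Molecular chaperones are the proteins that help other proteins to fold, to assemble and to avoid aggregation, and their RNAs were followed here through meiotic maturation of the mouse oocyte. The genes were taken by symbol: those that begin with Hspa, Hspb, Hspd, Hspe, Hsph, Hsp90, Dnaja, Dnajb or Dnajc, the Cct genes numbered from 2 to 8, and Tcp1, with symbols marked -ps left out. Of the 15962 genes listed in all 8 expression tables, 69 met this rule, which uses names and no measured value. A low-value filter of at least 1 scaled TPM (a transcript measure: reads per gene length as a share of the library) in at least 2 libraries kept 13952 genes, among them 65 of the 69. The 4 that it removed were Hspa1b (0.280 to 1.25 scaled TPM over the 8 libraries), Cct6b (0.0741 to 0.716), Dnajc6 (0.0377 to 0.629) and Dnajc27 (0.0439 to 0.794).

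HSP70 proteins bind exposed stretches of unfolded chains in a cycle of ATP hydrolysis that J proteins (the Dnaj genes) start and that nucleotide exchange factors such as the HSP110 proteins complete, whereas HSP90 acts later, on nearly folded clients such as kinases. The chaperonin TRiC is a closed chamber built from distinct subunits that folds actin and tubulin, and the endoplasmic reticulum (ER) and the mitochondrion each own a separate set. The fully grown oocyte is transcriptionally silent, so that maturation runs on stored maternal RNA, part of which is removed with the help of BTG4, an adaptor of the deadenylase complex.

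Polyadenylated RNA was profiled with Smart-seq2 in 8 libraries of 15 oocytes each, 2 for each of 4 groups, and the oocytes came from female Crl:CD1 (ICR) mice aged 6 weeks. The control groups were untreated oocytes from in vitro culture, either GV (fully grown, with an intact germinal vesicle) or MII (matured to metaphase of the second meiotic division). The injected groups, Btg4wt and Btg4tm, were MII oocytes that overexpressed BTG4 from cRNA microinjected at the fully grown stage, as the wild-type protein in Btg4wt and as a mutant with 3 neighbouring phosphorylated residues changed to alanine in Btg4tm. These oocytes kept their own Btg4 gene, and the amounts of endogenous and injected BTG4 protein are not measured in these tables. The labels do not say whether the 2 libraries of a group came from separate animals, and p-values therefore measure only the spread between these libraries, which may be technical.

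All 14 oocyte markers examined, among them Zp3, Gdf9 and Nlrp5, were listed in all 8 tables, with a summed level of 20149 to 31892 scaled TPM. Of 20 markers of cumulus and granulosa cells, 7 were listed in all 8 tables, with a sum between 36.6 and 50.9, and Amh, Fshr and Foxl2 were not among them. Of the 5 that were tested, 1, Inha, was called, lower in MII than in GV and higher in Btg4tm than in Btg4wt. Its levels were 4.37 and 2.11 in GV, 0 and 0.532 in MII, 1.88 and 1.09 in Btg4wt, and 9.83 and 5.18 in Btg4tm. The other tested markers were not called. Their log2 fold changes in MII over GV were 0.63 (Cyp19a1), 0.95 (Kitl), 0.27 (Nr5a2) and -0.12 (Star). In Btg4tm over Btg4wt they were -0.23, -0.76, -0.87 and 0.34 in the same order. Cyp19a1 lay between 15.7 and 26.8 scaled TPM and Nr5a2 between 8.97 and 20.9. Btg4 itself read 2650.0 and 2794 in GV, 5792 and 6002 in MII, 5178 and 5510.4 in Btg4wt, and 3725 and 4068 in Btg4tm, and the tables do not separate injected from endogenous RNA. The share of listed TPM taken by mitochondrially encoded genes moved with the groups as well, from 0.625% and 0.651% in GV to 2.71% and 2.60% in MII, 2.05% and 1.75% in Btg4wt, and 0.765% and 1.02% in Btg4tm. Their part in the results below was not tested. Replicates of a group correlated across the chaperone genes with a Pearson coefficient of 0.992 to 0.994 on the log2 scale, a value across genes, which are not independent.

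Chaperone RNAs split during maturation into a larger set that was lower and a small set that was higher in MII than in GV. The test was limma on log2(scaled TPM + 1), and a gene was called where its p, adjusted after Benjamini and Hochberg over all genes tested, lay below 0.05 and it differed by more than 1 in log2 units, a factor of 2 on this scale. In MII over GV, 23 of the 65 tested chaperone genes (35.4%) were called lower and 4 (6.15%) higher, beside 24% and 12.6% of all genes tested. Their median log2 fold change was -0.31, against 0.00194 over all genes. It was -0.16 without MII replicate 1, against 0.013 over all genes, and -0.068 with quantile normalization, against 0.28 over all genes. In Btg4tm over Btg4wt, 16 (24.6%) were called higher and 3 (4.62%) lower, beside 18.2% and 7.95% of all genes, with a median of 0.28 against 0.0066. By adjusted p alone, with no minimum fold, 16 (24.6%, beside 29.9% of all genes) were higher and 29 (44.6%, beside 32.8%) lower in MII, and 28 (43.1%, beside 26.3%) higher and 15 (23.1%, beside 23.3%) lower in Btg4tm. Both MII libraries were above both GV libraries in 18 (27.7%, beside 41.2% of all genes) and below them in 35 (53.8%, beside 41.5%), and both Btg4tm libraries were above both Btg4wt libraries in 34 (52.3%, beside 37.6%) and below them in 23 (35.4%, beside 36.7%). The 69 genes together took 0.682% to 0.783% of the listed TPM in the 8 libraries. MII over GV and Btg4tm over Btg4wt have no library in common. Scaled instead to the mitochondrially encoded genes, a setting that moved the median of all genes to -1.69 in MII over GV and to 0.84 in Btg4tm over Btg4wt, 65 chaperone genes were called lower and 0 higher in MII (66 passed the filter), beside 80.8% and 0.0481% of all genes, and 38 higher and 0 lower in Btg4tm, beside 42% and 0.468%. Every direction below refers to the median-of-ratios scaling, under which TPM remain shares of a library, so that less RNA of a gene and more RNA of others cannot be told apart. A lower level of an RNA and a shorter poly(A) tail, which the oligo(dT) primer captures less well, cannot be told apart either.

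**Figure D1:**
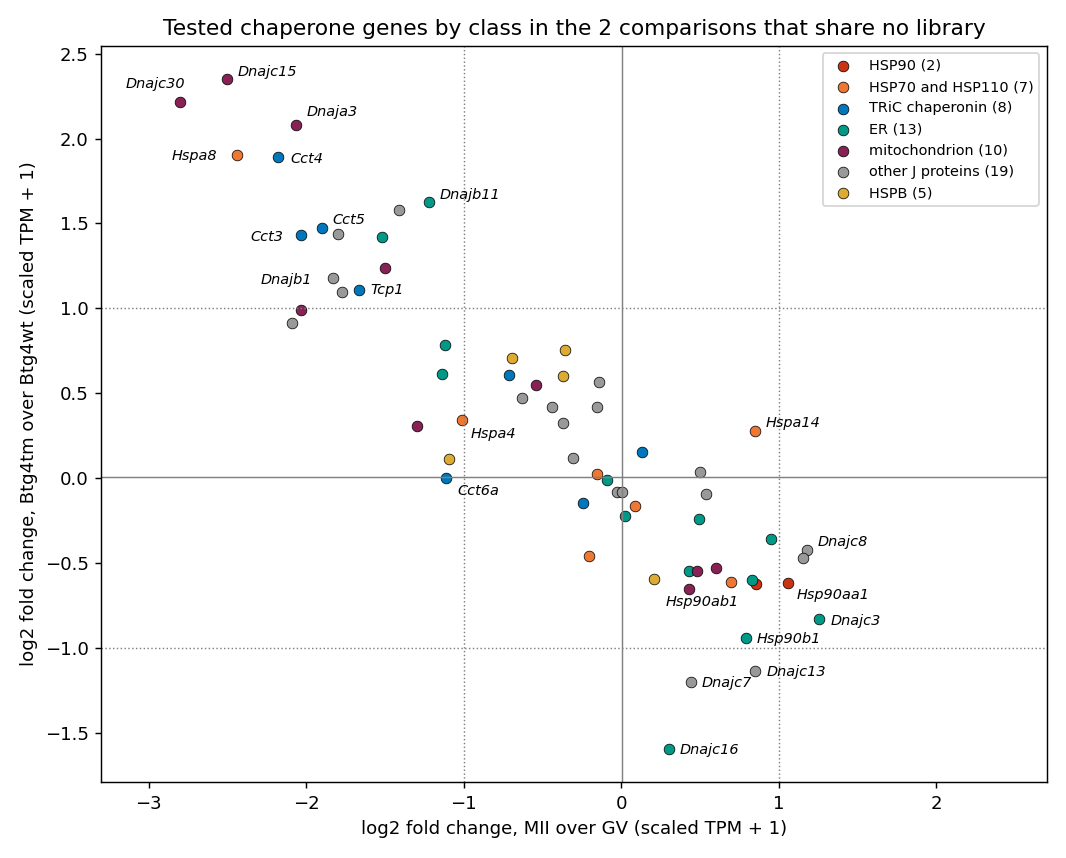
Log2 fold change of the tested chaperone genes that belong to a class in MII over GV (x axis) and in Btg4tm over Btg4wt (y axis), on log2(scaled TPM + 1), with 1 point per gene coloured by class, solid lines at the median of all genes and dotted lines at an absolute log2 fold change of 1. The 15 genes called in both comparisons lie at the upper left, and Hsp90aa1, Dnajc3 and Dnajc8 lie at the lower right; scaled to the mitochondrially encoded genes, all of the latter 3 are lower in MII.

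Both RNAs of cytosolic HSP90, the chaperone of kinases and steroid receptors, were higher in MII than in GV and lower in Btg4tm than in Btg4wt by adjusted p, and Hsp90aa1 was the most abundant chaperone RNA in each of the 8 libraries. Hsp90aa1 (chr12:110690605-110702728), the stress-inducible form, had 975 and 1090.5 scaled TPM in GV, 2103 and 2189 in MII, 2288 and 2654 in Btg4wt, and 1579 and 1638 in Btg4tm. Hsp90ab1 (chr17:45567775-45573271), the constitutive form, had 279 and 299 in GV, 550.4 and 498 in MII, 596 and 520.3 in Btg4wt, and 372 and 351 in Btg4tm. Both genes were lowest in the GV libraries and highest in the Btg4wt or MII libraries, and the Btg4tm libraries lay between, with no overlap between Btg4tm and any other group.

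Hsp90aa1 rose 2.08-fold in MII (log2 fold change 1.06, SE 0.11, adjusted p = 6.6e-05 by limma), but the log2 fold change was 0.98, under the fold threshold, without GV replicate 1, 0.90 on the TPM as deposited and -1.16 when scaled to the mitochondrially encoded genes. For Hsp90ab1 it was 0.85 (SE 0.11, adjusted p = 0.00019), also under the fold threshold, and -1.36 with the mitochondrial scaling. In Btg4tm over Btg4wt the values were -0.62 (95% interval -0.87 to -0.36, adjusted p = 0.002) for Hsp90aa1 and -0.62 (-0.87 to -0.38, adjusted p = 0.0016) for Hsp90ab1, past the p threshold and short of the fold threshold, and both were above 0 with the mitochondrial scaling (0.47 and 0.46). The ratio of Hsp90aa1 to Hsp90ab1 stayed between 3.49 and 5.10 over the 8 libraries, a narrow range beside their levels. Of the annotated Hsp90aa1 transcript, 67.1% lies in 50-base stretches that transcripts of other genes also hold, against 14.6% for Hsp90ab1. The authors dropped reads with a mapping quality under 10, so that levels of genes with many such stretches are uncertain. Over 20% of the transcript was shared in this way in 18 of the 69 genes, among them Dnajc8 (26.2%), Dnajc14 (27.6%), Dnajc19 (44.5%) and Hspb1 (68%).

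Of the 4 cytosolic HSP70 genes tested, 1 was called in both comparisons. Hspa8 (chr9:40800984-40810087), which encodes the constitutive HSC70, had 611 and 608 scaled TPM in GV, 109 and 113 in MII, 128 and 97.1 in Btg4wt, and 476 and 372 in Btg4tm. The 2 GV libraries were the highest, the MII and Btg4wt libraries overlapped at the bottom, and the Btg4tm libraries stood between. It fell in MII to 0.184 of the GV level (log2 fold change -2.44, SE 0.16, adjusted p = 6e-06) and rose 3.75-fold in Btg4tm (1.91, SE 0.16, adjusted p = 3.4e-05), and 84.4% of its annotated transcript is shared with other transcripts in 50-base stretches. The ratio of Hsp90aa1 to Hspa8 was 1.60 and 1.79 in GV, 19.2 and 19.3 in MII, 17.8 and 27.3 in Btg4wt, and 3.32 and 4.40 in Btg4tm. Scaling a library by a single factor does not change this ratio, which quantile normalization can change.

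The other 3 HSP70 genes were not called. Hspa14, whose protein sits at the ribosome with the J protein of Dnajc2, had 80.3 and 68.5 scaled TPM in GV, 135 and 134 in MII, 123 and 117 in Btg4wt, and 155 and 137 in Btg4tm. Its MII value was above GV (0.85, adjusted p = 3e-04, under the fold threshold; -1.35 with the mitochondrial scaling) and its Btg4tm value was not below Btg4wt (0.28, 95% interval 0.016 to 0.54, adjusted p = 0.075). Hspa2 (3.21 to 5.11 scaled TPM) and Hspa12a (4.20 to 5.69) were low in all 8 libraries. The stress-inducible Hspa1b was at most 1.25.

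Among the 3 HSP110 genes, the exchange factors of HSP70, Hspa4 fell in MII and neither of the other 2 was called. Hspa4 had 52.8 and 59.8 scaled TPM in GV, 27.7 and 27.0 in MII, 29.98 and 30.1 in Btg4wt, and 40.2 and 36.6 in Btg4tm. Its log2 fold change in MII was -1.01 (SE 0.12, adjusted p = 0.00014), just past the fold threshold, and -0.92 without GV replicate 2, -0.98 without MII replicate 2 and -0.80 with quantile normalization, all under it. In Btg4tm it was 0.34 (95% interval 0.068 to 0.62, adjusted p = 0.043), and 33.95% of the fall was regained, in log2 units. Hsph1 lay between 34.8 and 56.5 over all 8 libraries and Hspa4l between 12.6 and 23.6, with Hspa4l at 12.6 and 14.3 in GV and 22.5 and 22.4 in MII (0.70, adjusted p = 0.0058; -1.40 with the mitochondrial scaling).

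The cytosolic J proteins, which choose the clients of HSP70, went in both directions. Dnajb1, the main HSP40 partner of HSP70, had 484 and 442 scaled TPM in GV, 124 and 134 in MII, 129 and 149 in Btg4wt, and 339 and 292 in Btg4tm. As for Hspa8, the groups did not overlap in either comparison: Dnajb1 fell in MII (log2 fold change -1.83, SE 0.12, adjusted p = 6.4e-06) and rose in Btg4tm (1.18, SE 0.12, adjusted p = 9.9e-05), where the log2 fold change was 0.99, under the fold threshold, with quantile normalization. Dnajb4, of the same subfamily, had 181 and 164 in GV, 255 and 245 in MII, 269 and 286 in Btg4wt, and 253 and 267 in Btg4tm. Its MII value was above GV by 0.54 (adjusted p = 0.0015, under the fold threshold; -1.67 with the mitochondrial scaling), and Btg4tm and Btg4wt differed by -0.094 (95% interval -0.32 to 0.13). Dnajb6, known for holding back polyglutamine aggregates, ranged from 62.4 to 93.9 and Dnajb2 from 2.96 to 6.96, with no call.

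None of the 3 Dnaja genes in the cytosol was called. Dnaja1 lay between 165 and 219 scaled TPM and its fold change was near 0 in both comparisons (-0.027, 95% interval -0.34 to 0.28, in MII, and -0.079, -0.39 to 0.23, in Btg4tm). Dnaja2 ranged from 131 to 230.2, with its highest values in Btg4tm (0.42, adjusted p = 0.014, under the fold threshold). Dnaja4 was 21.4 and 19.9 in GV and 27.3 to 30.6 in the other 6 libraries, though 44.1% of its exonic bases overlap another annotated gene and counting was not strand-specific.

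The next 12 tested Dnajc genes are those that the lists used here place in neither the ER nor the mitochondrial class. Of these, 2 were called higher and 4 lower in MII, beside 12.6% and 24% of all genes. In Btg4tm, 3 were called higher and 2 lower, beside 18.2% and 7.95%. Dnajc8, whose protein is part of the spliceosome, had 273 and 249 scaled TPM in GV, 607 and 576 in MII, 574 and 609.6 in Btg4wt, and 415 and 469 in Btg4tm. It rose 2.27-fold in MII (1.18, SE 0.10, adjusted p = 2.7e-05; -1.03 with the mitochondrial scaling), and its Btg4tm libraries lay between the GV and MII levels (-0.42 over Btg4wt, adjusted p = 0.0093). Dnajc21, a ribosome biogenesis factor, was 56.4 and 45.5 in GV, 110.5 and 118 in MII, 169 and 109 in Btg4wt, and 98.5 and 97.0 in Btg4tm. It rose in MII by 1.15 (SE 0.20, adjusted p = 0.0011), a value just under the fold threshold on the TPM as deposited and at -1.03 with the mitochondrial scaling.

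The genes of this class that fell in MII were Dnajc14, Dnajc17, Dnajc24, which serves diphthamide synthesis, and Dnajc5g, and all but Dnajc5g also rose in Btg4tm. Dnajc14 had 143 and 115 scaled TPM in GV, 37.5 and 34.8 in MII, 35.7 and 35.4 in Btg4wt, and 104 and 92.2 in Btg4tm (-1.80, adjusted p = 1.2e-05, and 1.44, adjusted p = 6.3e-05). Dnajc17 had 57.5 and 65.3 in GV, 16.0 and 18.5 in MII, 17.7 and 29.8 in Btg4wt, and 47.4 and 53.1 in Btg4tm, with 54.9% of its transcript shared. Dnajc24 had 6.96 and 8.28, 2.86 and 1.72, 1.21 and 1.62, and 4.24 and 8.90 in the same order. In all 3 genes both Btg4tm libraries were above both Btg4wt libraries. Dnajc5g fell from 18.8 and 15.0 to 5.43 and 1.73 and stood at 8.19 and 11.8 in Btg4tm against 4.58 and 4.91 in Btg4wt, a difference of 0.92 with a wide interval (0.063 to 1.77, adjusted p = 0.072).

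Of the rest, Dnajc2 was higher in Btg4tm, with 84.4 and 90.7 against 59.0 and 58.7 in Btg4wt (0.56, adjusted p = 0.0019, under the fold threshold), and Dnajc9, a histone chaperone, was at 239 and 203 against 182 and 148 (0.42, adjusted p = 0.025). Dnajc5 (10.1 to 12.4 over the 8 libraries) and Dnajc5b (15.9 to 26.7) had no adjusted p under 0.05.

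The falls in Btg4tm belonged to Dnajc7, Dnajc13 and, in the ER class, Dnajc16. Dnajc7, which links HSP70 and HSP90, had 27.5 and 30.9 scaled TPM in GV, 42.6 and 37.6 in MII, 45.1 and 37.1 in Btg4wt, and 16.4 and 18.3 in Btg4tm. Dnajc13, an endosomal J protein, had 9.38 and 10.1, 18.9 and 17.9, 19.7 and 20.2, and 8.37 and 8.71 in the same order. Both were below the GV level in the Btg4tm libraries, with log2 fold changes over Btg4wt of -1.20 (adjusted p = 0.00027) and -1.13 (adjusted p = 0.00028), which became -0.15 and -0.12 with the mitochondrial scaling.

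**Figure D2:**
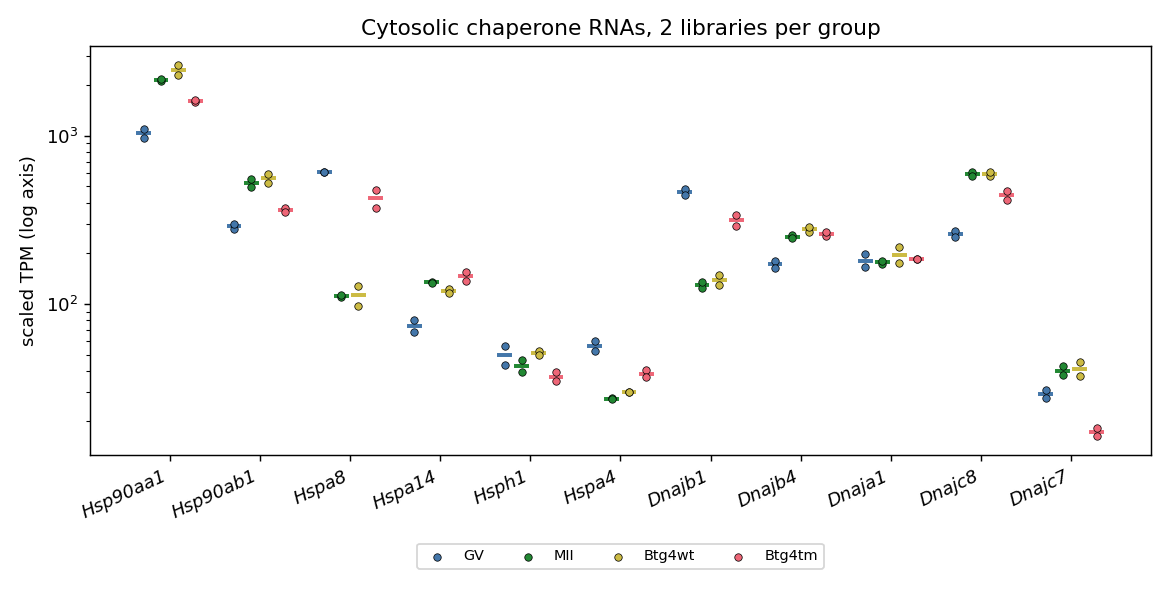
Scaled TPM (log axis) of 11 cytosolic chaperone genes in GV, MII, Btg4wt and Btg4tm, with 1 point per library and a bar at the mean of the 2 libraries. Hspa8 and Dnajb1 are low in MII and Btg4wt and higher in Btg4tm, and Hsp90aa1, Hsp90ab1 and Dnajc8 are highest in MII and Btg4wt; scaled to the mitochondrially encoded genes, the latter 3 are lower in MII than in GV.

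TRiC is built from 8 different subunits in equal number, yet their RNAs neither started at equal levels nor moved together. Of the 8 tested subunit genes, 5 were called lower in MII and 4 of these, Tcp1, Cct3, Cct4 and Cct5, were called higher in Btg4tm, beside 24% of all genes lower in MII and 70% of those higher in Btg4tm. The median log2 fold change of the 8 was -1.39 in MII and 0.86 in Btg4tm. Summed over the subunits, TRiC RNA was 1698 and 1698 scaled TPM in GV, 814 and 822 in MII, 926 and 846 in Btg4wt, and 1565 and 1482 in Btg4tm.

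Cct5 (chr15:31590800-31601804) was the highest subunit in the GV and Btg4tm libraries and not in those of MII and Btg4wt, with 821 and 846 scaled TPM in GV, 225 and 219.8 in MII, 269.5 and 219 in Btg4wt, and 709 and 647 in Btg4tm. The MII and Btg4wt libraries overlapped and all 4 were far below the GV and Btg4tm libraries. The fall in MII was -1.90 (SE 0.12, adjusted p = 4.7e-06) and the rise in Btg4tm 1.48 (SE 0.12, adjusted p = 2.8e-05), which is 77.6% of the fall in log2 units. Cct3 had 140.3 and 133 in GV, 32.7 and 32.7 in MII, 40.1 and 33.1 in Btg4wt, and 104 and 95.7 in Btg4tm. Cct4 had 79.8 and 77.1, 17.8 and 15.4, 11.4 and 13.7, and 52.0 and 46.3 in the same order. These 2 genes regained 70.4% and 86.8% of their falls of -2.03 and -2.18. Tcp1, the first subunit gene to be described, went from 137 and 121 in GV to 36.8 and 43.4 in MII, with 57.5 and 47.3 in Btg4wt and 112 and 114 in Btg4tm. Its rise in Btg4tm of 1.11 (adjusted p = 0.00028) was 0.96 without Btg4wt replicate 2 and 0.88 with quantile normalization, both under the fold threshold, and 25.7% of its transcript is shared with other transcripts.

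Of the other 4 subunits, Cct7 went in the same directions with smaller changes, whereas Cct8, Cct2 and Cct6a departed from this course. Cct8 had 323 and 315 scaled TPM in GV, 347 and 351 in MII, 370.4 and 360.4 in Btg4wt, and 405 and 408 in Btg4tm, so that it exceeded Cct5 in all 4 libraries of MII and Btg4wt. Its log2 fold change was 0.13 (95% interval -0.062 to 0.32) in MII, where it was -2.08 with the mitochondrial scaling, and 0.15 (-0.039 to 0.35) in Btg4tm. Cct2 had 152 and 159.8 in GV and 129 to 146 in the other 6 libraries (-0.24 in MII, 95% interval -0.45 to -0.032). Cct7 lay between, at 38.1 and 35.9 in GV, 22.8 and 21.6 in MII, 28.2 and 24.4 in Btg4wt, and 48.0 and 34.1 in Btg4tm (-0.71, adjusted p = 0.0068, and 0.61, adjusted p = 0.018, both under the fold threshold).

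Cct6a was the lowest subunit in every library, with 5.95 and 9.48 scaled TPM in GV, 2.78 and 3.12 in MII, 2.76 and 2.93 in Btg4wt, and 3.58 and 2.23 in Btg4tm. It was called lower in MII (-1.11, SE 0.26, adjusted p = 0.0064), with -0.81 and an adjusted p of 0.053 without GV replicate 2 and -0.78 with quantile normalization. In Btg4tm it was level with Btg4wt (0.00018, 95% interval -0.61 to 0.61). The annotation used here files Cct6a as a processed transcript and not as a coding gene, and 18.4% of its transcript is shared with another gene, so its level may miss reads. The ratio of Cct5 to Cct8, which scaling a library by a single factor does not change, was 2.54 and 2.69 in GV, 0.649 and 0.625 in MII, 0.728 and 0.607 in Btg4wt, and 1.75 and 1.58 in Btg4tm. The Btg4tm libraries lay between those of GV and of MII, with no overlap. Leaving out Cct6a, the highest subunit exceeded the lowest by a factor of 14.8 to 32.4 in every library.

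**Figure D3:**
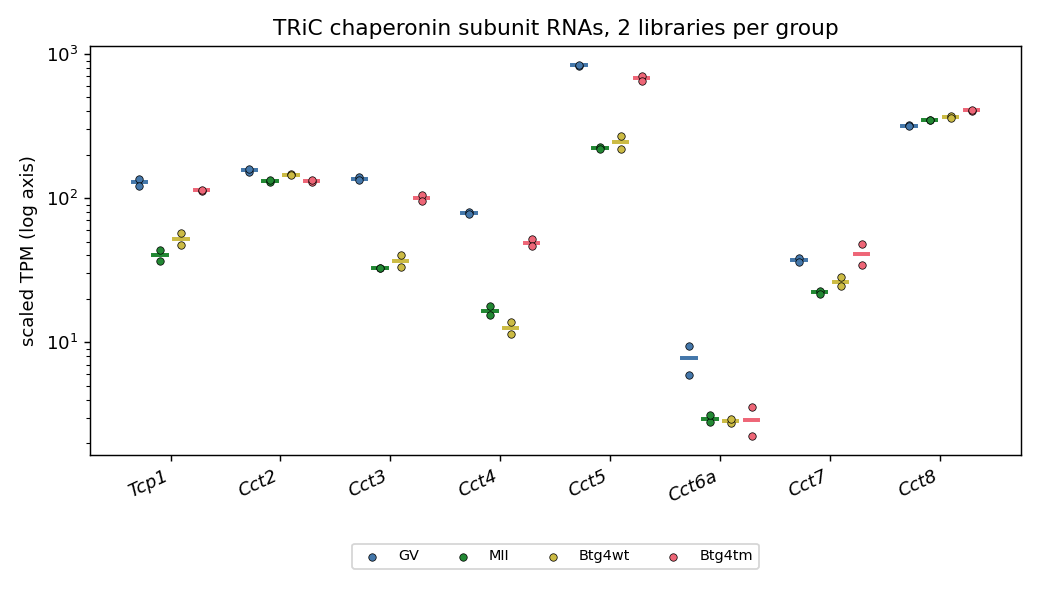
Scaled TPM (log axis) of the 8 tested TRiC subunit genes in GV, MII, Btg4wt and Btg4tm, with 1 point per library and a bar at the mean of the 2 libraries. Tcp1, Cct3, Cct4 and Cct5 drop in MII and Btg4wt and are higher in Btg4tm, also when scaled to the mitochondrially encoded genes, while Cct8 and Cct2 stay near their GV level, from which they fall under that scaling.

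In the ER, RNAs of the chaperones that hold folding clients differed among themselves, and so did RNAs of the J proteins that serve them. Hspa5, which encodes BiP, the HSP70 of the ER, had 152 and 149.8 scaled TPM in GV, 139 and 145 in MII, 206 and 170.4 in Btg4wt, and 212 and 164 in Btg4tm. Its fold change was within the spread in both comparisons (-0.087, 95% interval -0.42 to 0.24, and -0.011, -0.34 to 0.32). Hsp90b1, the HSP90 of the ER, had 54.4 and 63.9 in GV, 105 and 100.1 in MII, 130.1 and 142 in Btg4wt, and 65.3 and 76.1 in Btg4tm. Dnajc3, whose protein restrains the ER stress kinase PERK, had 173 and 185 in GV, 428 and 431 in MII, 413 and 400.4 in Btg4wt, and 228 and 228 in Btg4tm. Hsp90b1 and Dnajc3 were both lowest in GV, next in Btg4tm and highest in MII and Btg4wt, with no overlap between these 3 levels.

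Dnajc3 rose 2.39-fold in MII (1.26, SE 0.088, adjusted p = 8.7e-06), and its Btg4tm difference was -0.83 (adjusted p = 0.00012), with -1.01 under quantile normalization, past the fold threshold. For Hsp90b1 the values were 0.79 (adjusted p = 0.00076) and -0.94 (adjusted p = 0.00044), neither past the fold threshold, although the Btg4tm difference passed it with quantile normalization (-1.18), without Btg4wt replicate 1 (-1.01) and without Btg4tm replicate 2 (-1.05). With the mitochondrial scaling the MII values became -0.95 for Dnajc3 and -1.40 for Hsp90b1, and the Btg4tm values 0.26 and 0.14. Dnajc10, a disulfide reductase with a J domain, had 28.2 and 24.8 scaled TPM in GV, 52.2 and 43.7 in MII, 41.3 and 45.5 in Btg4wt, and 29.1 and 27.6 in Btg4tm (0.83 and -0.60, under the fold threshold), with GV and Btg4tm overlapping. Dnajc16 was low, at 2.27 and 3.32 in GV, 4.53 and 2.90 in MII, 5.88 and 5.86 in Btg4wt, and 1.17 and 1.40 in Btg4tm, and fell in Btg4tm by 1.59 on the log2 scale (adjusted p = 0.00092).

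The ER J proteins Dnajb11 and Dnajb9 went the other way. Dnajb11, a BiP partner in the lumen, had 75.7 and 76.2 scaled TPM in GV, 31.5 and 32.6 in MII, 29.98 and 26.6 in Btg4wt, and 102 and 77.7 in Btg4tm, so both Btg4tm libraries were above both GV libraries. It fell in MII (-1.22, SE 0.15, adjusted p = 0.00015) and rose 3.09-fold in Btg4tm (1.63, SE 0.15, adjusted p = 5.4e-05). Dnajb9 fell from 14.0 and 13.0 in GV to 3.83 and 4.25 in MII, and Btg4tm held 9.89 and 11.6 against 4.19 and 2.71 in Btg4wt. Dnajb12 and Dnajc18, both membrane-bound, were also called lower in MII (-1.14 and -1.12) but were not called in Btg4tm (0.61 and 0.79). Dnajc1 was higher in MII (13.8 and 14.5) than in GV (6.61 and 7.07) by 0.95, under the fold threshold (adjusted p = 0.0011), Hspa13 ranged from 3.52 to 7.97, and Dnajc25 (1.47 to 5.03) and Dnajb14 (0.567 to 1.08) were close to the filter. In all, 1 of the 13 tested genes listed in the ER class was called higher and 4 lower in MII, beside 12.6% and 24% of all genes. In Btg4tm, 2 were called higher and 1 lower, beside 18.2% and 7.95%.

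These 13 genes share a compartment and only some of them a promoter motif. In promoters of the RefSeq table for GRCm38.p6, which span 250 bases before to 50 bases after the start site, 56 of the 69 genes had an entry, with 73 promoters in all. The ER stress response element (CCAAT, 9 bases, CCACG, on either strand) stood in 3 of the 73 promoters (4.11%) and in 0.119% of the 32851 promoters of the table. The 3 were those of Hspa5, Dnajc3 and Hsp90b1, shown here because genes with the same element had unlike RNA courses, and capitals mark the element:
Hspa5, chr2:34772005-34772063, plus strand: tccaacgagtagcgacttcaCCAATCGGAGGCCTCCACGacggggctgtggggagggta
Dnajc3, chr14:118937807-118937865, plus strand: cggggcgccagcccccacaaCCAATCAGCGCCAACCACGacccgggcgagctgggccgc
Hsp90b1, chr10:86705513-86705571, minus strand: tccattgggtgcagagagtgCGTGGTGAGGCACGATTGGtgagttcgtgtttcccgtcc
In the last of these the element reads on the opposite strand. The Hsp90b1 promoter also held an element in the forward direction, at -212 to -194 from the start site, which is not shown. Hspa5 had no call in either comparison, whereas Dnajc3 was called higher in MII.

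Among the 10 tested mitochondrial genes, the HSP70 and HSP60 genes had a different course from most J proteins. Hspa9, the mitochondrial HSP70, had 113 and 125 scaled TPM in GV, 154 and 167 in MII, 158 and 162 in Btg4wt, and 106 and 97.3 in Btg4tm. Hspd1, the chaperonin HSP60, had 67.8 and 72.3, 104 and 109.6, 97.1 and 111, and 73.9 and 69.6 in the same order. Neither was called, with 0.43 and 0.60 in MII (adjusted p = 0.0068 and 0.0016; -1.77 and -1.59 with the mitochondrial scaling) and -0.65 and -0.53 in Btg4tm (adjusted p = 0.0011 and 0.0044).

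Hspe1, the HSP10 lid of the HSP60 chamber, had the opposite course from Hspd1. It had 173 and 190.0 scaled TPM in GV, 131 and 118 in MII, 126 and 141 in Btg4wt, and 188 and 203 in Btg4tm (-0.54, adjusted p = 0.0029, and 0.55, adjusted p = 0.0035, both under the fold threshold). The ratio of Hspd1 to Hspe1 was 0.392 and 0.381 in GV, 0.795 and 0.925 in MII, 0.772 and 0.792 in Btg4wt, and 0.392 and 0.343 in Btg4tm. The MII and Btg4wt libraries lay apart from the GV and Btg4tm libraries, and a single scaling factor per library leaves this ratio unchanged. Shared stretches make up 65.3% of the Hspd1 and 72.9% of the Hspe1 transcript, so that both levels may miss reads.

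Hspd1 and Hspe1 lie head to head on chromosome 1 and share a promoter with 4 units of the heat shock element in a row, which is shown because the RNAs on its 2 sides took different courses. A unit is GAA or its reverse complement TTC, alternating with 2 bases between units, and capitals mark the units on the Hspe1 strand:
Hspe1 and Hspd1, chr1:55088039-55088096, plus strand: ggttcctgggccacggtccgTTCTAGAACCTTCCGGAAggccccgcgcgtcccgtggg
At least 3 such units stood in 6 of the 73 promoters (8.22%) and in 0.603% of all promoters of the table, and the 6 belonged to Hspe1, Hspd1, Dnajb6 and Hsph1. At least 2 units (GAANNTTC or TTCNNGAA, each its own reverse complement, counted also inside the longer ones) stood in 18 of the 73 (24.7%), against 15.1% of all. Among these were Cct5 and Cct2, whose RNAs took different courses, and Dnajb4:
Dnajb6, chr5:29735832-29735884, plus strand: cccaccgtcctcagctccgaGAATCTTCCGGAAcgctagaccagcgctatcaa
Cct5, chr15:31601853-31601900, minus strand: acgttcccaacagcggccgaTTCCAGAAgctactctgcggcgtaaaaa
Cct2, chr10:117063390-117063437, minus strand: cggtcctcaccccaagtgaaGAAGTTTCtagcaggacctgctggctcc
Dnajb4, chr3:152193846-152193879, minus strand: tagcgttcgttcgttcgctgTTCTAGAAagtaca
Of the 4 genes with at least 3 units, none was called in either comparison. Hsp90aa1, Hsp90ab1, Hspa8, Hspa9 and Cct4 had no entry in the promoter table.

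Of the other 7 mitochondrial genes, all of them J proteins, 6 were called lower in MII and 4 of these higher in Btg4tm, beside 24% of all genes lower in MII and 70% of those higher in Btg4tm. Dnaja3, the partner of mitochondrial HSP70, had 39.6 and 32.3 scaled TPM in GV, 7.57 and 8.03 in MII, 7.69 and 9.03 in Btg4wt, and 44.2 and 33.4 in Btg4tm. Its rise in Btg4tm was as large as its fall in MII (2.08 and -2.06, both SE 0.18, adjusted p = 4.7e-05 and 2.9e-05). Dnajc15, a J protein of the import machinery, had 13.8 and 11.1 in GV, 1.20 and 1.52 in MII, 1.26 and 1.35 in Btg4wt, and 10.1 and 11.4 in Btg4tm. Dnajc30 had 30.9 and 26.4, 3.08 and 3.40, 2.84 and 5.80, and 20.96 and 24.6 in the same order. With -2.51 for Dnajc15 and -2.80 for Dnajc30 these were 2 of the 3 largest falls in MII among the tested chaperone genes, beside Hspa8, and in Btg4tm they rose by 2.35 and 2.21. Of the exonic bases of Dnajc30, 26.2% overlap another annotated gene, and 29.5% of its transcript is shared, so that its level is uncertain. Dnajc19, the second J protein of the import motor, fell from 28.4 and 27.2 to 9.15 and 9.21 and stood at 22.6 and 27.1 in Btg4tm against 9.84 and 9.97 in Btg4wt.

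Dnajc11 and Dnajc4 fell in MII and were not called in Btg4tm. Dnajc11, a protein of the cristae organising system, had 44.0 and 43.8 scaled TPM in GV, 16.2 and 18.4 in MII, 27.0 and 25.6 in Btg4wt, and 32.4 and 33.1 in Btg4tm. Its Btg4wt libraries were already above both MII libraries (0.58, 95% interval 0.30 to 0.86, adjusted p = 0.19), and its difference of Btg4tm over Btg4wt was 0.31 (adjusted p = 0.067), against -1.30 in MII over GV. Dnajc4 fell by 2.03 on the log2 scale and was 0.99 higher in Btg4tm (adjusted p = 0.011), on the edge of the fold threshold: the value was 1.01 without Btg4wt replicate 1, 1.36 without Btg4tm replicate 1 and 1.11 with a pseudocount of 0.1 TPM. The contrast of its rise against its fall was -1.04 (adjusted p = 0.11). Dnajc28 ranged from 1.68 to 4.43 and was not called.

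**Figure D4:**
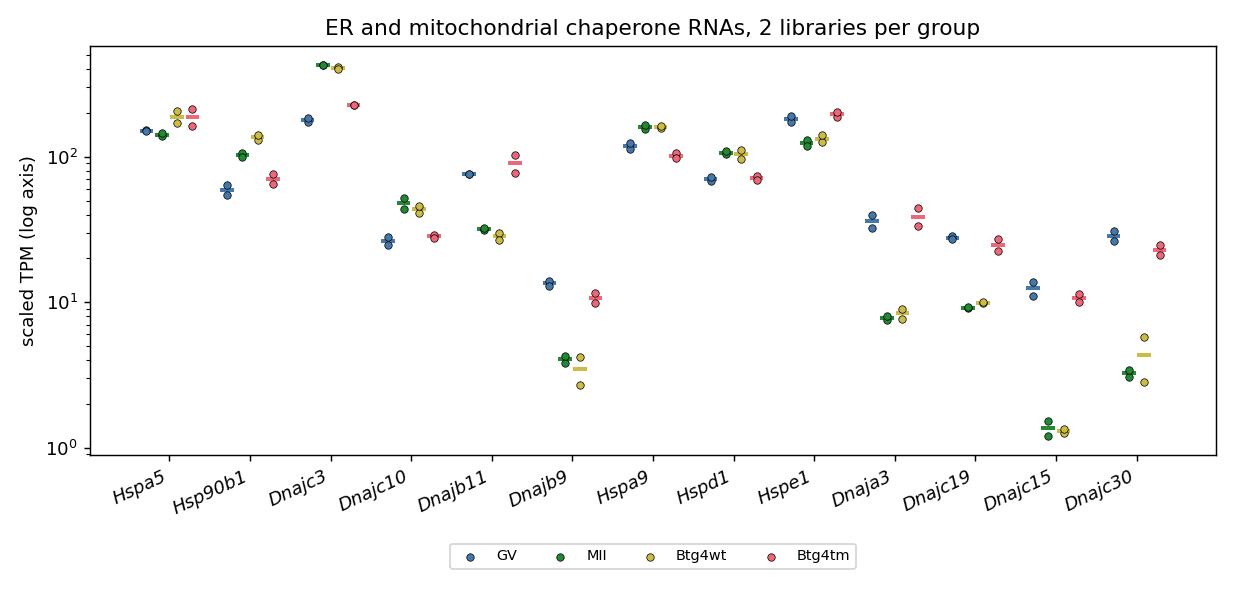
Scaled TPM (log axis) of 6 ER genes (Hspa5 to Dnajb9) and 7 mitochondrial genes (Hspa9 to Dnajc30) in GV, MII, Btg4wt and Btg4tm, with 1 point per library and a bar at the mean of the 2 libraries. Dnajb11, Dnajb9, Dnaja3, Dnajc19, Dnajc15 and Dnajc30 are low in MII and Btg4wt, and Hsp90b1, Dnajc3, Hspa9 and Hspd1 are highest there; scaled to the mitochondrially encoded genes, these 4 are lower in MII than in GV.

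The small heat shock proteins, which hold unfolded chains without ATP, were at most 109 scaled TPM. Hspb1, encoding HSP27, had 42.1 and 39.0 in GV, 54.8 and 40.1 in MII, 80.8 and 109 in Btg4wt, and 65.6 and 58.4 in Btg4tm, and it had the largest difference of Btg4wt over MII among the tested chaperone genes with a positive sign (0.98, 95% interval 0.56 to 1.41, adjusted p = 0.17). Hspb6 was called lower in MII (-1.10, adjusted p = 0.014) at 1.70 to 7.10 scaled TPM, with -0.78 without GV replicate 2, -0.91 without MII replicate 1 and -0.76 with quantile normalization, none of them a call. Hspb11, an intraflagellar transport protein despite its symbol, was 22.8 and 18.4 in GV, 15.8 and 15.9 in MII, 11.6 and 15.6 in Btg4wt, and 21.9 and 24.9 in Btg4tm (0.75 over Btg4wt, adjusted p = 0.0088). Hspbp1 (0.457 to 2.09) and Hspbap1 (7.58 to 14.6), which carry the prefix as binding partners, were not called.

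Across the classes, 15 of the 23 genes called lower in MII (65.2%) were called higher in Btg4tm, beside 70% of all 3351 genes called lower. Conversely, 15 of the 16 called higher in Btg4tm (93.8%) had been called lower in MII, beside 92.5% of all 2534. These shares were close to those of all genes. The 8 genes lower in MII and not called in Btg4tm were Cct6a, Hspa4, Hspb6, Dnajb12, Dnajc4, Dnajc5g, Dnajc11 and Dnajc18, and of the 4 called higher in MII (Hsp90aa1, Dnajc3, Dnajc8 and Dnajc21) 0 were called lower in Btg4tm, beside 26.5% of all 1752. In the 15 genes called in both, the rise was 61.6% (Dnajc17) to 133% (Dnajb11) of the fall in log2 units.

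Whether rise and fall differed in size was tested with the contrast of Btg4tm minus Btg4wt against GV minus MII. It called 2 of the 65 genes higher (3.08%) and 0 lower, beside 1.99% and 1.7% of all genes, and 25 chaperone genes (38.5%, beside 26.4% of all) had an unadjusted p under 0.05. By adjusted p alone, 3 (4.62%, beside 4.91% of all genes) were higher and 1 (1.54%, beside 2.72%) lower. Hspa14 was called higher (1.13, 95% interval 0.76 to 1.503, adjusted p = 0.016), and its call was lost with eBayes without trend (adjusted p = 0.067). Hspa14 had not fallen in MII (0.85 over GV). Its contrast therefore adds this value to the 0.28 of Btg4tm over Btg4wt and sets no rise against a fall. Without GV replicate 2, MII replicate 1, MII replicate 2 or Btg4wt replicate 1, the adjusted p of Hspa14 was 0.059, 0.074, 0.065 and 0.061. Dnajc11 stood at the edge in the lower direction (-0.99, 95% interval -1.38 to -0.60, adjusted p = 0.02) and was past the fold threshold on the TPM as deposited (-1.16). For Hsp90aa1 the contrast was 0.44 (adjusted p = 0.12) and for Cct5 -0.43 (adjusted p = 0.15), so a difference in size was not shown for either.

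No chaperone gene was called between oocytes that overexpressed wild-type BTG4 and untreated MII oocytes. In Btg4wt over MII, which shares libraries with both comparisons above, limma called 0 of the 65 genes, as it did 0% of all genes, and 11 (16.9%, beside 11.9% of all genes) had an unadjusted p under 0.05. The median log2 fold change was 0.086 against 0.021 over all genes.

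The last 100 bases of the annotated transcripts were read for TTTTAT or TTTTAAT, the cytoplasmic polyadenylation element that marks maternal RNAs for tail extension in maturation, a motif chosen after the values had been seen. Of the 22 chaperone genes called lower in MII with an annotated coding transcript, 0 held it, beside 9.86% of all genes called lower, and of the 4 called higher 2 did, beside 31.4%. Among the tested chaperone genes it was in 14.3%, against 19.4% of all genes tested. It was in 6 of 25 chaperone genes with a log2 fold change above 0 (24%, beside 25.5% of all such genes) and in 3 of 38 below 0 (7.89%, beside 12.8%). The 3 below 0 were Dnajc2 (-0.14), Dnajc9 (-0.44) and Hspbap1 (-0.70), and their sites are not shown. Those of Dnajc16 and Dnajc25, above 0 and not called, are not shown either. The last sites of Dnajc3 and Dnajc8, both called higher in MII, and of Hsp90ab1 and Dnajb4, both above GV and under the fold threshold, are shown with the element in capitals:
Dnajc3: atatgggcaatatTTTTATgcccgtgtatt
Dnajc8: acgtataataaatTTTTATacccaagcctt
Hsp90ab1: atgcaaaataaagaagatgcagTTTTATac
Dnajb4: tgagtcctatagtctTTTTAATagaatgtg
The Dnajc3 stretch ends 31 bases before the annotated end and the other 3 stretches run to it. Hsp90ab1 held a further TTTTAT, starting 56 bases from the annotated end, which is not shown. The ends used in oocytes were not read here, and a match of letters is no evidence that a factor binds.

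Genes that work with the chaperones, taken from lists of the pathway, also had calls in both directions. Of 6 prefoldin genes, which pass clients to TRiC, 4 were called lower in MII and 2 higher in Btg4tm, beside 24% and 18.2% of all genes. Pfdn6 had 138 and 146 scaled TPM in GV, 5.17 and 5.92 in MII, 6.62 and 4.97 in Btg4wt, and 103 and 111 in Btg4tm, so that its MII and Btg4wt libraries overlapped far below the others. Of 21 tested co-chaperones, 3 were higher and 8 lower in MII, beside 12.6% and 24% of all genes, and 4 higher and 2 lower in Btg4tm, beside 18.2% and 7.95%. The HSP90 partner Ptges3 rose with Hsp90aa1, from 170.0 and 179.7 in GV to 394 and 382 in MII, whereas Stip1, which joins HSP70 to HSP90, fell with Hspa8 from 362 and 382 to 159 and 152. Other HSP90 partners went both ways in MII over GV. Chordc1 (1.34) and Cdc37l1 (1.10) were called higher, and Cdc37 (-1.90), Fkbp4 (-2.20) and Ahsa2 (-1.42) were called lower. Ahsa1 (0.89) and Fkbp5 (0.89) were above GV and under the fold threshold. St13, a partner of HSP70, was not called (0.34). On the TPM as deposited the 3 higher became 1, and Ptges3 (0.99) was under the fold threshold. With the mitochondrial scaling Ptges3 was lower in MII (-1.06) and 19 of the 21 were called lower, where 80.8% of all genes were. Of 10 other ER folding genes, 0 were higher and 2 lower in MII, and 1 was higher in Btg4tm, beside the same shares of all genes. Of the 4 tested heat shock factor genes 0 were called, while all 4 were called lower in MII with the mitochondrial scaling, as were 80.8% of all genes, and Hsf1, the main activator of the heat shock response, lay between 39.6 and 53.7 scaled TPM in all 8 libraries.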

How the data were processed

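Full-length cDNA was made with Smart-seq2 from polyadenylated RNA of 15 oocytes per library; the mice's age of 6 weeks is taken from the study's methods. According to the study's methods, the authors trimmed reads with Trim Galore 0.6.10, aligned them to GRCm38 with HISAT2 2.2.0 and counted primary, paired reads over GENCODE vM25 exons without strand and with a mapping quality of at least 10, using featureCounts 2.0.6. The values deposited by the authors are TPM per gene; the gene lengths behind them are not given in the sources used here, and without counts the depth is unknown, so no counting error is given. The 4 control tables list 1422 genes that the injection tables lack and these list 486 that the former lack; 15962 genes in all 8 were used.

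TPM were divided by median-of-ratios factors (0.948 to 1.11), and log2(scaled TPM + 1) of the 13952 genes with at least 1 scaled TPM in at least 2 libraries was fitted with limma 3.58.1 (R 4.3.3; 1 mean per group over all 8 libraries, eBayes with trend, two-sided tests, 95% intervals). Fold changes on this scale understate those of low genes. The same steps were tested on simulated data. Calls, thresholds and 4 contrasts are as defined in the text, and the rule for named genes took the 10 highest by mean level, up to 8 called rises and falls per comparison averaging 5 scaled TPM or more, all Hsp90, Cct and Tcp1 genes and the main HSP70, HSP60 and HSP10 genes, those called in the rise against the fall, and up to 4 per class; the other chaperone genes were named after their values were seen, and 1 gene that enters the counts is not reported here. Leaving out each library, 3 other scalings, other pseudocounts, filters and thresholds, eBayes without trend and a replicate term were the alternatives. The chaperone genes and all gene lists (prefoldins, co-chaperones, ER folding genes, heat shock factors, oocyte markers, cumulus and granulosa markers) were chosen with earlier results of these data known. Of the oocyte markers, 1 was called higher and 5 lower in MII, and 4 higher and 1 lower in Btg4tm. Gene positions and transcripts come from GENCODE M21 (GRCm38), in which 68 of the 69 genes were found, and promoters from RefSeq (GRCm38.p6). The labels mention 3 samples per group, of which 2 are analysed here.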

Additional observations from a re-analysis of the deposited data

How the results depend on the processing

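In fits that leave out 1 library, the lone library of a group is assumed to vary like the other groups. The counts then ranged from 15 to 17 higher and 3 to 4 lower in Btg4tm over Btg4wt, from 3 to 4 higher and 20 to 23 lower in MII over GV, 0 to 0 in Btg4wt over MII, and from 0 to 2 higher and 0 to 2 lower for the rise against the fall, with medians of 0.26 to 0.30, -0.34 to -0.16, 0.029 to 0.10 and -0.18 to -0.091. A replicate block, for numbers that did not pair the libraries (correlations of deviations -0.054 to 0.056), gave the same counts, 16 higher and 3 lower in Btg4tm over Btg4wt, 4 and 23 in MII over GV, 0 and 0 in Btg4wt over MII, and 2 and 0 for the rise against the fall.

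On the TPM as deposited, MII over GV had 2 higher, beside 8.2% of all genes. Its median was -0.46, against -0.13 over all genes. The rise against the fall had 1 higher and 2 lower, beside 0.981% and 3.32%, with -0.27 against -0.24. With quantile normalization, Btg4tm over Btg4wt had 5 lower, beside 12.8% of all genes, with a median of 0.077 against -0.19 over all genes. MII over GV then had 7 higher, beside 22.3%, with -0.068 against 0.28. Btg4wt over MII had a median of 0.052, against 0.0027. Scaled to the mitochondrially encoded genes, Btg4tm over Btg4wt had 38 higher and 0 lower with a median of 1.20, MII over GV 0 higher and 65 lower with -2.39, Btg4wt over MII a median of 0.50, and the rise against the fall 1 higher and 39 lower with -1.11. The medians of all genes in these 4 comparisons were then 0.84, -1.69, 0.38 and -0.99. In the rise against the fall, 0.172% of all genes were called higher and 46.1% lower. This scaling also turned Hsp90aa1 (-1.16), Hsp90ab1 (-1.36), Dnajc8 (-1.03), Dnajc3 (-0.95), Dnajc21 (-1.03), Dnajb4 (-1.67), Dnajc7 (-1.71), Dnajc13 (-1.21), Hsp90b1 (-1.40), Cct8 (-2.08), Hspa9 (-1.77), Hspd1 (-1.59), Hspa14 (-1.35), Hspa2 (-1.69), Hspa4l (-1.40), Hspb1 (-1.96) and Dnaja4 (-1.63) in MII over GV, Dnaja1 (1.003) and Hspa5 (1.07) in Btg4tm over Btg4wt, and Hspd1 (-1.05), Hspe1 (-1.11) and Hspbap1 (-1.01) in the rise against the fall. A change of sign in a value that passed the threshold under neither setting was not counted.

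A pseudocount of 0.1 gave 1 lower in the rise against the fall, beside 1.59% of all genes. There, eBayes without trend or an adjusted p under 0.01 gave 0 higher, as in all genes (0%). Medians in Btg4tm over Btg4wt and MII over GV were 0.15 and -0.24 without a filter and 0.33 and -0.36 with a minimum of 5 TPM. With no minimum fold, Btg4tm over Btg4wt had 28 higher and 15 lower, MII over GV 16 higher and the rise against the fall 1 lower. Leaving out genes that share over 20% of their transcript, a choice made after seeing the data, kept 47 tested. Of these, 9 were called higher in Btg4tm over Btg4wt, close to the 18.2% of all genes tested, with a median of 0.15. In MII over GV 2 were higher, beside 12.6%, with a median of -0.24. Btg4wt over MII had a median of 0.065, and the rise against the fall 1 higher, beside 1.99%. The shares of all genes were not restricted by shared sequence. Apart from fewer genes in this last setting, the cause was not tested. Only 2 libraries per group and unknown depth limit the precision of genes near the filter.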

Other observations

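Hspa1a, the near-identical neighbour of the stress-inducible Hspa1b, was listed in the control tables and not in the injection tables, and was therefore compared nowhere. Its TPM as deposited lay between 0.232 and 0.445 in the 4 GV and MII libraries.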
